A study of Meleagris gallopavo with 8 samples.

Results

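The 10 enzymes and carriers described here burn fatty acids inside mitochondria: CPT1A, CPT2, ACADL, ACADM, ACADS, ETFA, ECHS1, HADH, HADHA and HADHB. They were chosen by name. An enzyme was counted when its symbol stood on at least 1 transcript of the study's merged annotation that matched a reference transcript, was contained in one, or shared a splice junction with one. All 10 of 10 were found. The list was drawn up with earlier results of these data known, so this count is not a recovery rate for the pathway. In all, 7360 gene names met the same rule, and the share of all reference names that this makes was not worked out. The RNA came from pectoralis major (breast) muscle of random-bred (RBC2) turkeys killed at 22 weeks. The series holds 8 samples, of which 4 came from normal meat with a high uptake of marinade and 4 from pale, soft and exudative (PSE) meat with a low uptake, a defect in which meat is light and loses water. The study asked which genes differ between the 2 kinds of meat. The count columns deposited with the series carry no names, could not be matched to samples and were not used. Levels of these enzymes, their difference between normal and PSE muscle and the depth of the libraries were not analysed here. What follows is the form in which each enzyme was assembled from all samples together.

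Long-chain fatty acids cross the mitochondrial membranes as carnitine esters and are then shortened in a repeated cycle. Each turn oxidises the chain, adds water, oxidises it again and splits off acetyl-CoA, which enters the tricarboxylic acid cycle. Breast muscle of turkeys is built mainly of fast fibres that rely on glycogen, and fat oxidation is known chiefly from oxidative fibres and from heart and liver.

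The 10 enzymes had 19 transcripts, of which 5 matched the intron chain of a reference transcript exactly, 10 were variants that shared a junction with one and 4 were contained fragments. An exact match existed for 5 enzymes: CPT2, ACADS, HADHB, ECHS1 and ETFA. ACADL, ACADM and HADHA had variants alone, HADH had a contained fragment alone, and CPT1A had 1 of each. For 7 of the 10 enzymes there was a single transcript, against 44.0% of all 7360 named genes. ETFA stood apart with 8 transcripts, a number that 1.22% of named genes reached. The sources used here do not name the genome build, so all coordinates are those of the deposited annotation, counted from 1.

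**Figure D1:**
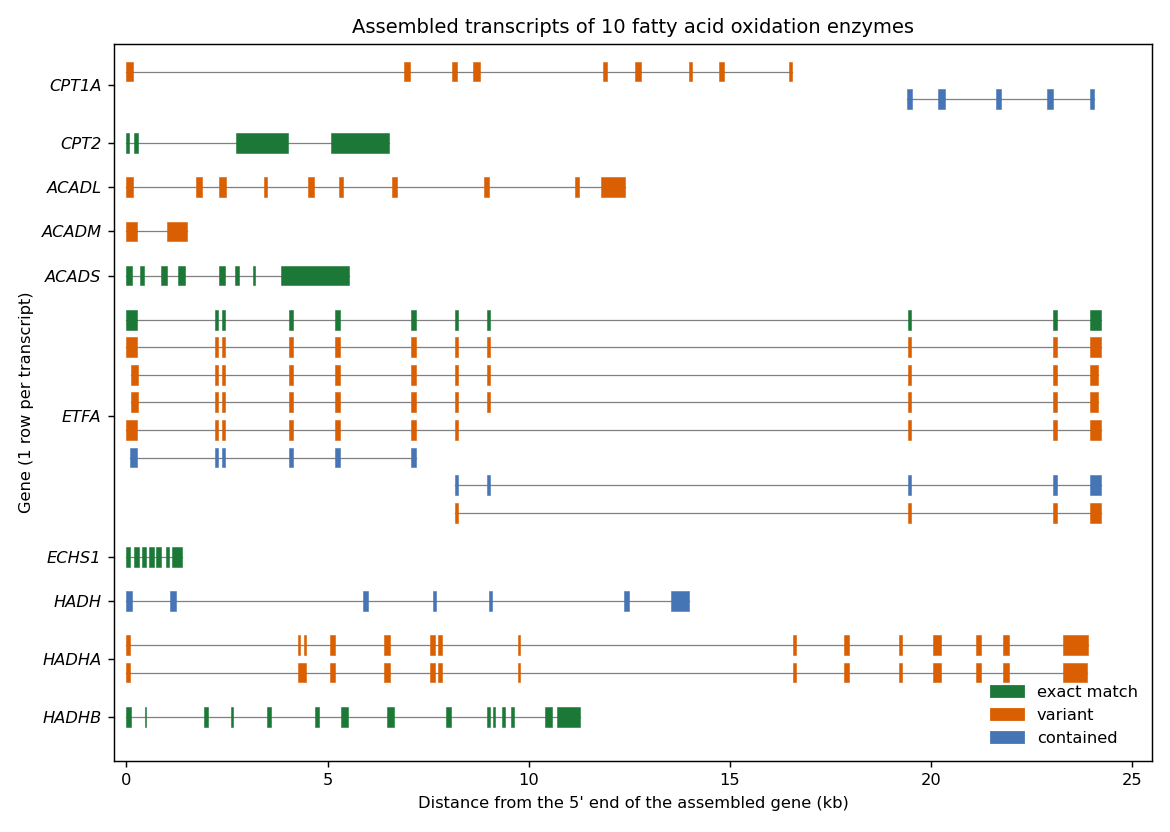
Exons (boxes) and introns (lines) of the 19 assembled transcripts of 10 fatty acid oxidation enzymes, 1 row per transcript, against the distance in kb from the 5' end of the gene. Colour gives the class against the reference. ECHS1 fits in 1389 bases, ETFA spans 24211 bases with 8 transcripts, and CPT1A is in 2 separate pieces.

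CPT1A, which loads long-chain fatty acids onto carnitine at the outer membrane, was assembled in 2 pieces that did not meet. Locus XLOC_030247 placed these pieces on the minus strand of chromosome 5, between 16782307 and 16806358. The upstream piece was a variant of 9 exons and 1132 spliced bases, and its first intron was the longest, at 6748 bases. The downstream piece had 5 exons and 682 spliced bases and was contained in the same reference transcript. A stretch of 2851 bases without any exon lay between them, so no single transcript held all 14 exons. A further single exon of 2971 bases under the same name, with no class letter, began 1780 bases past the downstream piece.

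CPT2, the inner-membrane partner that releases the fatty acid from carnitine, matched the intron chain of its reference. Whether its outer ends are those of the reference was not tested. Its 1 transcript was an exact match of 4 exons and 2924 spliced bases on chromosome 10 from 24918831 to 24925354, plus strand. The third exon had 1302 bases and the last 1445, so that these long exons made up most of the message. Among the 10 enzymes CPT2 had the longest spliced length and, apart from ACADM, the fewest exons. Only 26.8% of named genes had a transcript at least as long, while 79.3% had at least as many exons. The neighbouring gene C1ORF123, on the other strand, ended 247 bases past the end of CPT2.

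The 3 acyl-CoA dehydrogenases carry out the first oxidation on long (ACADL), medium (ACADM) and short (ACADS) chains. As assembled, they differed in exon number and spliced length. How much of each reference transcript was assembled was not worked out. ACADL was a single variant of 10 exons and 1727 spliced bases on chromosome 7 from 4816785 to 4829183, plus strand. Its introns measured 427 to 2156 bases, with a median of 1012. ACADS was an exact match of 8 exons and 2552 spliced bases on chromosome 17 from 9611669 to 9617199, minus strand, and its last exon alone had 1685 bases. Its introns had 196 to 845 bases, with a median of 343, so the median was lower than in ACADL. ACADM was assembled as 2 exons of 253 and 488 bases on the unplaced scaffold GL425490.1, from 106 to 1604. It was the only one of the 10 enzymes off the numbered chromosomes, and 97.0% of named genes had at least as many exons. No other locus lay on that scaffold within 25000 bases. The length of the scaffold is not known here, so it may leave no room for another locus.

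The surroundings of ACADL and ACADS held further transcripts. A variant under the name Q6W5H1_MELGA, from the neighbouring locus upstream, ended in an exon of 8 bases that lay inside an intron of ACADL, on the same strand, and shared 0 bases with its exons. Past the 3' end of ACADS lay a single exon of 610 bases with no strand, classed as close to ACADS, with 121 bases between them. Whether it is part of the ACADS message was not tested.

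ETFA encodes the alpha subunit of the electron transfer flavoprotein, which takes the electrons from all 3 dehydrogenases and hands them to ETFDH on the way to the respiratory chain. It lay on chromosome 12 from 2689031 to 2713241, plus strand, in locus XLOC_003595. Its 8 transcripts were 1 exact match, 5 variants and 2 contained fragments, set against 2 reference transcripts. The exact match had 11 exons and 1324 spliced bases. Between them the 8 transcripts used 14 different introns. The longest intron of the exact match had 10389 bases and followed exon 8.

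Exon 8 of ETFA, 83 bases from 2697991 to 2698073, was the one exon skipped. An intron of 11199 bases ran across it in 2 variants, with 10 and 4 exons, and 5 transcripts contained it. The remaining transcript was a fragment that stopped before it. Since 83 is not a multiple of 3, the variant of 10 exons and 1241 bases would have another reading frame after this point if the exon is coding throughout, which the annotation does not state. Across the annotation, 959 of 4556 loci with at least 2 spliced transcripts of these classes (21.0%) had an inner exon inside an intron of another transcript. Of the 3 enzymes with at least 2 transcripts, ETFA was the 1 that did.

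The other 3 ETFA variants with 11 exons differed from the exact match by the place of junctions, and those credited to ROP2 also by their ends. Introns of 1919 bases occurred at 2689307 in 4 transcripts and 7 bases further on in 2. Introns of 977 bases occurred at 2696218 in 3 transcripts and 4 bases further on in 2. Introns of 3539 bases occurred at 2708529 in 6 transcripts and 2 bases further on in 1. In each pair the upstream exon gained as many bases as the downstream exon lost, so the exact match and the 11-exon variant with the same ends both had 1324 bases. The ROP2 variants, with later starts and earlier ends, had 1154. Such pairs of equal-length introns, up to 10 bases apart, were found in 372 of 5269 loci (7.06%). The 5269 are the loci with at least 2 spliced transcripts of any class. No locus had more than 3 such pairs, and 3 loci, ETFA among them, had that number. Of all 400 pairs within 1 locus, 180 were shifted by 4 bases, 75 by 2 and 19 by 7. Which placement the reads favour was not tested.

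**Figure D2:**
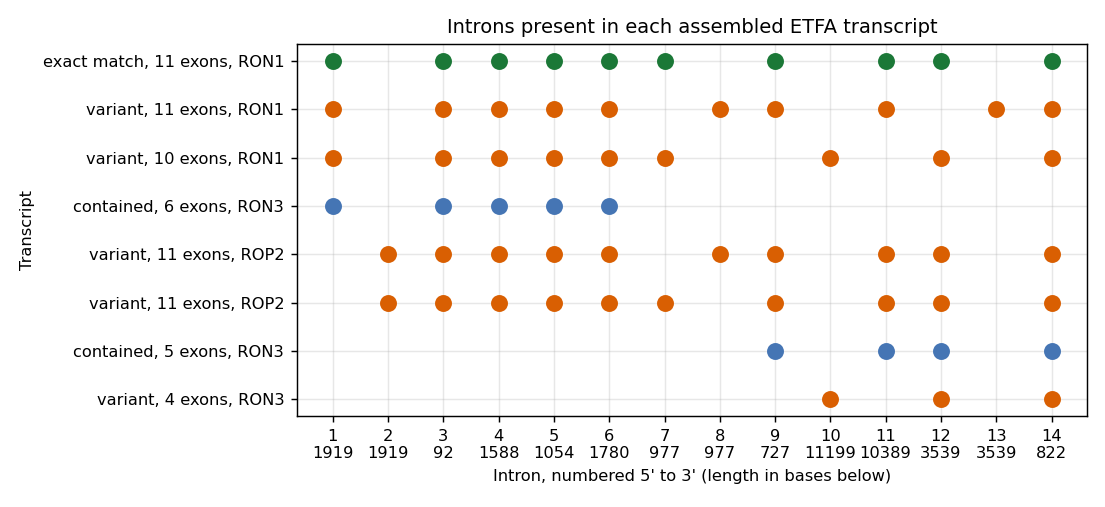
Introns (horizontal axis, numbered from 5' to 3', with length in bases) present in each of the 8 ETFA transcripts (vertical axis, with class, exon number and the name of the assembly). Introns 1 and 2, 7 and 8, and 12 and 13 are the pairs of equal length, and intron 10, of 11199 bases, replaces introns 9 and 11 where exon 8 is skipped.

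ECHS1, the hydratase that adds water to short chains, was the most compact of the 10. Its 7 exons and 881 spliced bases lay on chromosome 8 from 4711951 to 4713339, plus strand. Its intron chain matched that of the reference exactly. Its introns had 67 to 124 bases, with a median of 77.0, and made up 36.6% of the 1389 bases of the gene. Introns made up 94.5% of ETFA and 91.8% of HADH. Of the 3673 named genes with at least 7 exons on 1 transcript, 9 (0.245%) had a longest intron no longer than that of ECHS1.

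HADH, the dehydrogenase that carries out the second oxidation on medium and short chains, had as many exons as ECHS1, spread over 13992 bases in place of 1389. It had 1154 spliced bases on chromosome 4 from 18741686 to 18755677, minus strand. The introns measured 944 to 4644 bases, with a median of 1463.5. The transcript was contained in its reference, so the reference may extend beyond the assembled ends.

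HADHA and HADHB, the alpha and beta subunits of the trifunctional protein, lay head to head on chromosome 2. This complex of the inner membrane carries out the last 3 steps of the cycle on long chains: HADHA holds the hydratase and the dehydrogenase, and HADHB the thiolase. HADHA ran on the minus strand from 110423279 down to 110399388, and HADHB on the plus strand from 110424675 to 110435951. Their assembled 5' ends had 1395 bases between them, with no other locus in the gap. Of 1787 pairs of neighbouring named loci that point away from each other, 133 (7.44%) were as close or closer, and the median gap was 35328 bases. In the RefSeq table of turkey genes, too, HADHA had HADHB and RAB10 among the nearest 2 genes on each side.

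As assembled, the subunit genes were alike in exon number and differed in spread. HADHA had no exact match, so its assembled exon number may not be that of the whole gene. HADHB was an exact match of 15 exons and 2005 spliced bases, in 11277 bases of chromosome. HADHA had variants of 15 and 14 exons with 2133 and 2214 spliced bases, in 23892 bases of chromosome. A transcript of 15 exons or more was present for 885 of the 7360 named genes. The longest intron had 6776 bases in HADHA and 1430 in HADHB.

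The HADHA variants differed by 1 short intron. In the 15-exon form a 90-base intron, from 110418875 to 110418964, separated exons of 42 and 71 bases, and in the 14-exon form the whole stretch was 1 exon of 203 bases. The 14-exon form also stopped 9 bases earlier at the 3' end. An intron that lay inside an exon of another transcript was found in 351 of 4556 loci (7.70%). The 4556 are the loci with at least 2 spliced transcripts of the exact, contained or variant class. Neither form matched the reference chain exactly. With no read support per transcript in the annotation, their relative amounts are not known here.

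**Figure D3:**
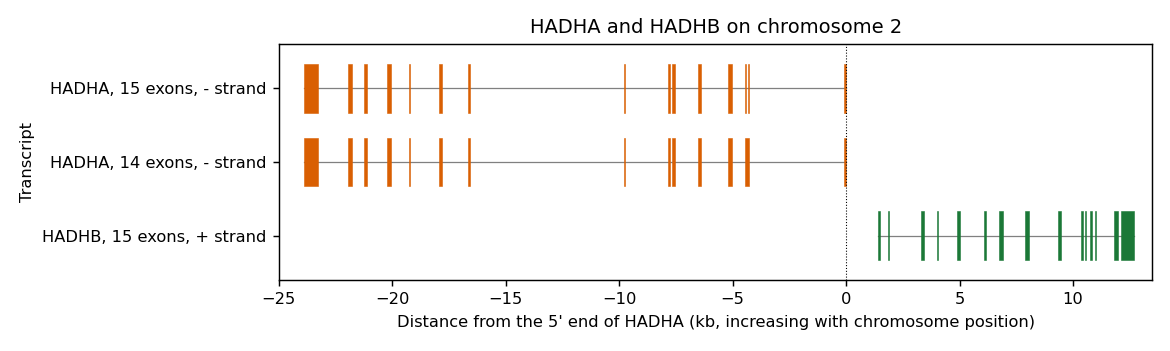
Exons of the HADHA and HADHB transcripts on chromosome 2 against the distance in kb from the 5' end of HADHA (dotted line). The genes point away from each other with 1395 bases between their 5' ends, and the HADHA rows differ where a 90-base intron is present or absent.

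Transcripts on the opposite strand stood under the names of 2 of the 10 enzymes, CPT2 and HADH, against 13.7% of named genes. In CPT2 a single exon of 1197 bases lay wholly inside the third exon of the gene. In HADH there were 3 such transcripts, and they mirrored the exons of the gene. Single exons of 456 and 139 bases lay over the last and the first exon, with 99.8% and 96.4% of their length on HADH exons. A spliced one of 2 exons and 295 bases lay over exons 2 and 3, with 95.3% of its length on exons of HADH.

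The intron of that spliced opposite-strand transcript had 4644 bases, as had the HADH intron across from it, and the HADH intron began 4 bases further along the chromosome. In the whole annotation 634 pairs of introns on opposite strands had equal length and were up to 10 bases apart. Of these, 276 (43.5%) had this same offset of 4 bases. Outside the 634, which differ by at least 1 base, 1 further pair of opposite-strand introns had identical ends. No source used here says whether the libraries kept the strand of the RNA. Without it, reads that lie within exons present on both strands cannot be assigned to either strand. Whether these HADH and CPT2 partners are separate RNAs was not tested.

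**Figure D4:**
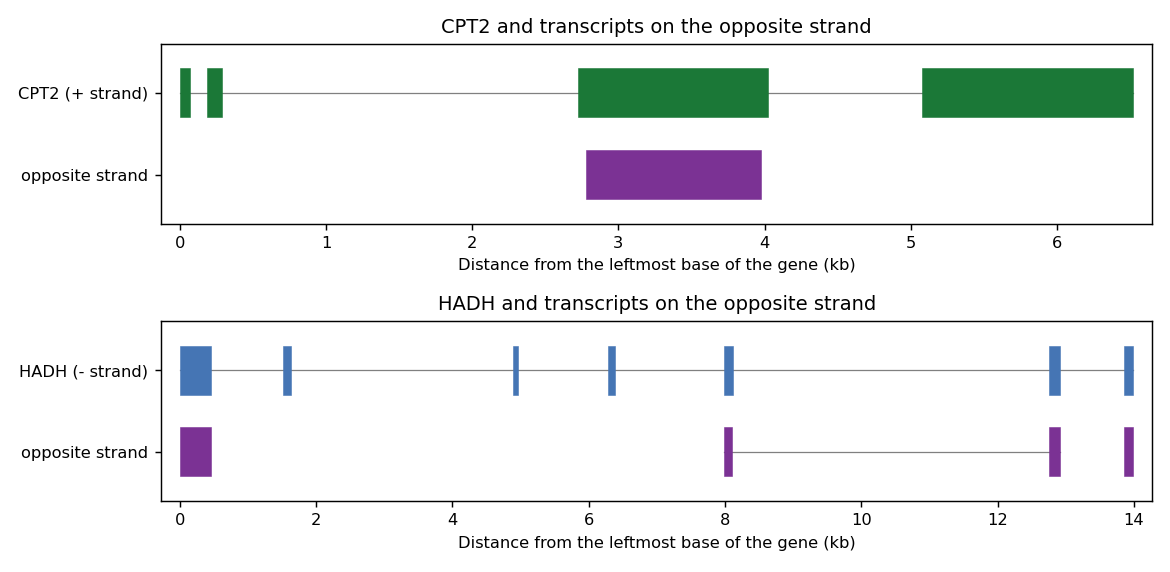
Exons of CPT2 and HADH (upper row of each panel) and of the transcripts on the opposite strand under the same name (lower row, purple), against the distance in kb from the leftmost base of the gene. All 4 opposite-strand transcripts lie over exons, and those of HADH share their outlines.

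Most genes of a wider list were present as well. This list, called other fatty acid oxidation below, also holds genes of related pathways, such as ACAT1. Of its 25 genes, with older and newer symbols joined, 19 were found. Among them were SLC25A20, the carrier of acylcarnitines across the inner membrane, with 3 transcripts of up to 8 exons, and ACSL1, which activates long-chain fatty acids, with 2 transcripts of up to 21. ETFDH, the acceptor of electrons from ETFA, had 2 transcripts of up to 13 exons. ACAA2, the thiolase for medium chains, was an exact match of 6 exons, and DECR1, needed for unsaturated chains, had 1 transcript of 10. ACAT1, a thiolase of ketone and isoleucine metabolism, had 6 transcripts. CPT1B, ACADVL, ACAD10, ETFB, ACSL5 and PCCA had no transcript of these classes under their symbols. CPT1B is the isoform known from mammalian muscle, and ETFB is the partner subunit of ETFA. A gene can lack a locus because it was not assembled or because it carries another name here.

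The 10 enzymes had lower median exon number and spliced length than the other fatty acid oxidation, tricarboxylic acid cycle and glycolysis genes. Medians were lower still, at 4.5 exons and 1273 bases, in the 14 genes found for fatty acid uptake and control of oxidation. Incomplete assemblies enter these medians. CPT1A counts by its longer piece of 9 exons and 1132 bases, though its exons together cover 1814 bases. The most exons on 1 transcript had a median of 8.5 (2 to 15) in the 10 enzymes and 11 (2 to 21) in the other 19 genes of fatty acid oxidation. The median was 9.5 (5 to 20) in the 16 of 18 tricarboxylic acid cycle genes found and 10 (9 to 17) in the 7 of 15 glycolysis genes found. Over all named genes it was 6. The longest spliced length had a median of 1525.5 bases in the 10 enzymes, with a range of 741 to 2924, against 2006 in the other fatty acid oxidation genes, 2066 in the cycle, 2409 in glycolysis and 1861 over all named genes. The ranges overlapped in every case and the differences were not tested.

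**Figure D5:**
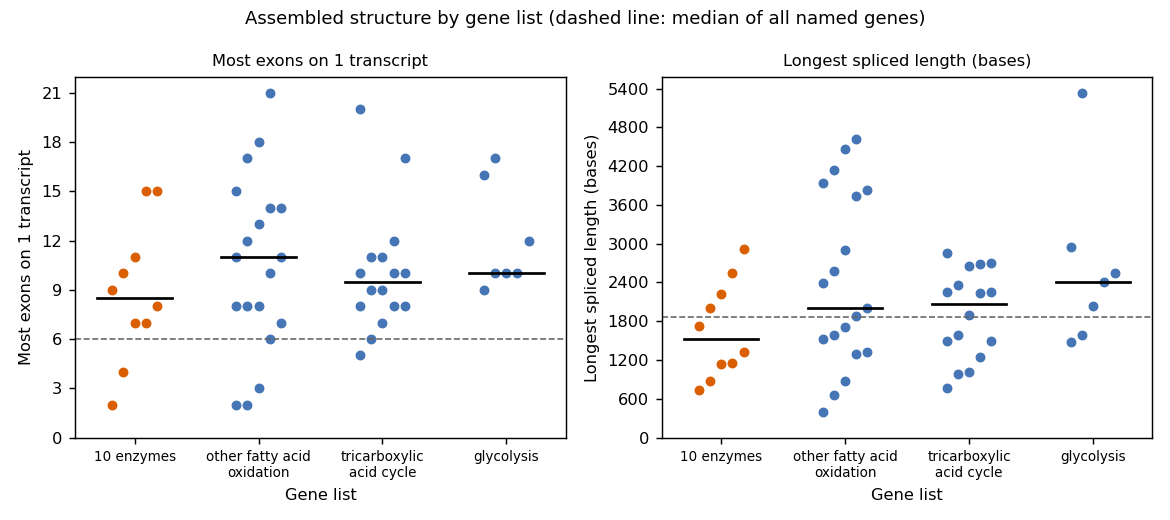
Most exons on 1 transcript (left) and longest spliced length in bases (right) for each gene (points) of 4 lists, with the median of the list (black bar) and of all named genes (dashed line). The 10 enzymes have medians of 8.5 exons and 1525.5 bases, and their range overlaps that of each other list.

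Exact matches were present for 5 of the 10 enzymes, 8 of 19 other fatty acid oxidation genes (42.1%), 9 of 16 cycle genes (56.2%), 4 of 7 glycolysis genes (57.1%) and 38.7% of all named genes. Opposite-strand transcripts stood under the names of 4 of the 19, 8 of the 16 and 0 of the 7.

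Of the markers of muscle, 3 of 10 for fast fibres and 8 of 11 for slow or oxidative fibres were found. For muscle of either type it was 4 of 7, NEB and DES among them. The fast ones found were TNNI2, PVALB and MYOZ1. The slow or oxidative ones included exact matches of TNNC1, MB and MYOZ2, but also MYL2 and MYH7B with only 57 and 82 spliced bases. ACTA1, CKM and MYH1 had no transcript of these classes under their symbols. A marker can also be missing because it carries another name here, so these counts do not measure the share of fibre types. Markers of other cell types were present too, at 3 of 6 for fat cells, 4 of 5 for endothelium, 5 of 5 for macrophages and 4 of 5 for fibroblasts. How much of each enzyme's RNA came from which cells was not tested. Each merged transcript is credited to 1 sample's assembly, which does not mean that it was absent from the others. Of the 19 transcripts, 11 were credited to RON1 (57.9%, against 49.4% of all transcripts of these classes). Another 4 were credited to RON3 (21.1% against 11.3%), 2 to RON2 (10.5% against 21.5%) and 2 to ROP2 (10.5% against 2.88%). These names differ from the sample titles of normal replicates 1, 3 and 2 and PSE replicate 2 by a letter O in place of a zero. The 2 transcripts credited to ROP2 were ETFA variants that began 113 bases inside the exact match. The 4 credited to RON3 were of HADHA and ETFA. None of the 19 was credited to RON4, ROP1, ROP3 or ROP4. Over all transcripts of these classes the number credited fell in the order of the names, from 9126 for RON1 to 49 for ROP4.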

How the data were processed

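Per the submitters' processing notes, TopHat, Cufflinks, HTSeq and DESeq were used, without versions, roles or order. The merged annotation deposited by the authors names Cufflinks on every line and gives exons, loci, gene names and a class against the nearest Ensembl reference transcript. A deposited table of counts per locus has 8 columns of values without names. None could be matched to a sample, and the table was left out as a whole. The planned levels per kilobase were therefore not computed, though they were to be taken over all columns together, with none tied to a sample. No test was made: the annotation is 1 merged assembly with no replicates.

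Transcripts of the exact, contained and variant classes were kept and gene names put in capitals (Python 3.11.15, pandas 2.3.3, NumPy 2.4.6, matplotlib 3.10.9). Exons and introns were counted per transcript, and junction pairs were introns of equal length at most 10 bases apart. The parsing was tested on simulated plus-strand genes of the exact class, with shifts shorter than the largest searched here. Minus-strand genes, the other classes and opposite-strand pairs were not simulated. RefSeq genes of Turkey 5.1 served only for names and neighbours, and all 10 symbols matched. The enzymes, lists and measures were chosen with earlier results of these data known, and the genes singled out in the text were chosen after their values were seen.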

Additional observations from a re-analysis of the deposited data

How the results depend on the processing

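The number of enzymes found was 10 with every class counted and with spliced transcripts alone, and 5 with exact matches alone, where ACADL, ACADM, HADHA, HADH and CPT1A drop out by construction. The other alternatives that could be run were chosen after seeing the data. Without the transcripts credited to RON1 the number was 4 (CPT1A, HADHA, HADHB and ETFA), and this only removes entries of a merged list, since the credit names 1 assembly per transcript. The median of the most exons went from 8.5 to 9 with exons merged over transcripts and to 8 with exact matches alone. The median spliced length went from 1525.5 to 1770.5 and 2005 bases. The other gene lists were not recomputed in these ways, so the comparison with them was not tried under these settings. ETFA had 2 junction pairs in place of 3 with a shift of at most 5 bases. Enzymes with a transcript on the other strand numbered 2 with any class or name as well. Divergent neighbours as close as HADHA and HADHB numbered 245 in place of 133 with loci of any class or name. The total of divergent pairs under that setting is not given here, so these counts do not say whether such a gap is more or less common. Other settings for levels (length of a locus, scaling, low counts, leaving out columns) were not run, since the counts were not used. Depth was not analysed here, so whether a missing exon or transcript was too rare to assemble was not tested.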

Other observations

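Genes that bring fatty acids to the muscle cell and control their oxidation are given here as values without a test. Of 21 such genes 14 were found, 3 of them with an exact match, and the most exons on 1 transcript had a median of 4.5. CD36, which takes up fatty acids, had 2 transcripts of up to 14 exons, and FABP3, the fatty acid binding protein of oxidative muscle, was an exact match of 3. ACACB, which makes the malonyl-CoA that inhibits CPT1 enzymes, had 2 transcripts of up to 36 exons. PDK4, a kinase that turns off pyruvate dehydrogenase, had 1 of 11 exons. Among the regulators, NRF1 was an exact match of 10 exons and PPARD had an exact match among 5 transcripts of up to 7, while PPARGC1B, PPARGC1A, PPARA and ESRRG had 5, 4, 2 and 2 exons at most. LPL, which frees fatty acids from lipoproteins, had 2 exons at most. FABP4, ACACA, PPARG, ESRRA, TFAM, PRKAA1 and PRKAA2 had no transcript of these classes under their symbols.

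Of the 9 enzymes with a named neighbour in the annotation, 6 shared at least 1 such neighbour, by identical symbol and without joining older and newer symbols, with the nearest 2 genes on each side in the RefSeq table: ACADL (LANCL1), ACADS (UNC119B), ECHS1 (PAOX), ETFA (SCAPER), and HADHA and HADHB with each other.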
